A study of Mus musculus with 3 samples.

Results

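The interferon-stimulated genes described here are 49 of the 27998 genes in the deposited gene list. They were chosen by symbol, as genes known to be induced by interferons, by a rule that uses no measured value but was written with earlier results of these data known, and each symbol was found 1 time. The cells were YFP(+) microglia, the resident macrophages of the central nervous system, sorted from the lumbar spinal cord of young adult C57BL/6 mice. All mice, the naive ones included, were heterozygous for Cx3cr1-creER-yfp, an allele in which the Cx3cr1 locus drives an inducible Cre and YFP, so that the sort rests on Cx3cr1 activity, which other mononuclear phagocytes share. The groups were naive mice, mice at 24 h and mice at 48 h after injury of the sciatic nerve by transection. The cords of 3 animals were pooled per group and made into 1 droplet library, in which transcripts are counted through unique molecular identifiers (UMIs).

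The 3 libraries were deposited as 1 matrix in which a barcode suffix separates them, and which suffix belongs to which time point is stated in none of the sources at hand. They are therefore called libraries 1, 2 and 3 of unknown time point, and with 1 library per group no test between them was possible. They held 609, 3591 and 3322 cells with a median of 2218, 5952 and 5742 UMIs per cell, and 1343055, 24097543 and 19769170 UMIs in all. The 49 members took 0.228%, 0.224% and 0.163% of these UMIs. Intervals are exact 95% intervals (Clopper-Pearson for shares of cells, Poisson for UMIs, conditional binomial for ratios) that cover counting error only, since the spread between animals was not measured. Animal, library preparation, cell depth and time point cannot be told apart in any difference between libraries. All 8 microglia markers examined were found in every library. A total of 25 barcode sequences occurred in more than 1 library, in 7, 23 and 21 cells. No large population of another cell type was present, so the level of free RNA in the droplets was not measured.

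Interferons are secreted proteins that warn cells of viral nucleic acid. Type I interferons bind a receptor made of Ifnar1 and Ifnar2, whose kinases activate Stat2. Stat2 joins Irf9 in a complex that binds the interferon-stimulated response element (ISRE) of its target genes, whose products block viral entry, translation and replication, sense foreign nucleic acid, or raise and limit the response itself.

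Promoters are shown because they carry the element that defines the response, in members found in few cells and in members found in many. RefSeq promoter windows (GRCm38.p6, 250 bases before to 50 bases after the start of transcription) were matched to 39 members, of which Mnda and Gm4955 are listed there as Ifi211 and Ifi206. Mx1, Oas2, Usp18, Ifi204, Ifi27l2a, Rtp4, Zbp1, Dhx58, Parp9 and Parp14 were not matched. The ISRE core was searched on both strands as GAAA followed, after a gap of NN, by GAAA again, where N is any base and overlapping matches count. The sequences of Ifit3, Isg15 and Cxcl10, each found in few cells, and of Bst2, Ifitm3 and Lgals9, found in more, are written 5′ to 3′ on the strand of the gene with the matches in capitals.
Ifit3 (chr19:34583279-34583578, plus strand): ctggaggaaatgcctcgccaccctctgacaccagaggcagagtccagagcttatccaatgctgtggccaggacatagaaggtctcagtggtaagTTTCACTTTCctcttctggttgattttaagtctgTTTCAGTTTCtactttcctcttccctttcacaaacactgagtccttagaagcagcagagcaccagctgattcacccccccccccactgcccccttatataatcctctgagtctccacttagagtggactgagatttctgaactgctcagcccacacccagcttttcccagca
Isg15 (chr4:156200769-156201068, minus strand): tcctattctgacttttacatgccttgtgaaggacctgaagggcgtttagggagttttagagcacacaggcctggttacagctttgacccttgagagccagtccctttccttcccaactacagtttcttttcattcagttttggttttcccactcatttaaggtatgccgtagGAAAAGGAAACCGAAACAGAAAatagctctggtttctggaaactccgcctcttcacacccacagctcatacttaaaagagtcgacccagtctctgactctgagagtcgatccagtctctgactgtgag
Cxcl10 (chr5:92348840-92349139, minus strand): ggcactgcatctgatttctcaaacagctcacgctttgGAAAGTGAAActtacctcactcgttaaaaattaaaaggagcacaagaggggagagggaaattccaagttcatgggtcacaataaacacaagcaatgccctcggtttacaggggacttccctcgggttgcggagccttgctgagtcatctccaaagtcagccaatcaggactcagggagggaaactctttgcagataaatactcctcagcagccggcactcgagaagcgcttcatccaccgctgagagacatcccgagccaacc
Bst2 (chr8:71537423-71537722, minus strand): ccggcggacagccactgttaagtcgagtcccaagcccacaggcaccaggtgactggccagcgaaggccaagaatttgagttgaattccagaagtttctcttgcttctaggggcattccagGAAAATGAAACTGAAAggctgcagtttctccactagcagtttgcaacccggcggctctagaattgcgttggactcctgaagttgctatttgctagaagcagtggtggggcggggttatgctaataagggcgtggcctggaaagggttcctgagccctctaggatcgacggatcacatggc
Ifitm3 (chr7:141010695-141010994, minus strand): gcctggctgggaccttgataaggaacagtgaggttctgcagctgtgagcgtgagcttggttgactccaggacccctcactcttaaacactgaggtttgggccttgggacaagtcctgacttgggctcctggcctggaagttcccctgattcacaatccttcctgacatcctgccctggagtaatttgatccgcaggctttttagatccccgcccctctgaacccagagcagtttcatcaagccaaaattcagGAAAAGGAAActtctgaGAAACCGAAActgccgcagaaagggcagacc
Lgals9 (chr11:78984875-78985174, minus strand): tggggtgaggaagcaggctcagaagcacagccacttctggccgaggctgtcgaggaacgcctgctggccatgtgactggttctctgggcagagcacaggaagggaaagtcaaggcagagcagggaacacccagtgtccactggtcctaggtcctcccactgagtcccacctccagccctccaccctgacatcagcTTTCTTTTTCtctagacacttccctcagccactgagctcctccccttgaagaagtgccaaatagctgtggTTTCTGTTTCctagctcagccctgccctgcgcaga

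A gene with several windows was counted if any of them held a match. The ISRE core was in 22 of the 39 matched members (56.4%, interval 39.6 to 72.2%), and in 3.99% of the 27025 genes with a window. It was in 18 of 31 members that were found in few cells (58.1%) and in 4 of 8 that were found in more cells (50%, interval 15.7 to 84.3%). In Isg15, 3 overlapping matches ended 69, 63 and 57 bases before the start, and in Bst2 2 overlapping matches ended 121 and 115 bases before it. In Ifitm3 both matches lay after the start. The core of the GAS element, which serves the response to type II interferon, was searched as TTCNNNGAA, which reads the same on both strands. It was in 7 of the 39 matched members and in 9.55% of all genes. A match describes the letters of the window, and binding was not measured.

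The share of cells in which a gene is found grows with depth, so shares were compared after each cell was thinned to 2000 UMIs, which left 408, 3569 and 3284 cells of libraries 1, 2 and 3. At this depth 39 members were found in under 10% of cells (mean of the 3 libraries) and are called few-cell members. The other 10, called broad members, were found in 10 to 50% of cells, and 0 members in over 50%. Without thinning, 7 members passed 50% of cells in library 2, namely Ifi27l2a, Ifi35, Ifitm3, Bst2, Slfn2, Lgals3bp and Lgals9. Of these, Ifi35, Bst2, Slfn2, Lgals3bp and Lgals9 also did so in library 3, and 0 did so in library 1, the shallowest. The broad members are therefore those of higher level, and the classes hold for this depth.

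**Figure D1:**
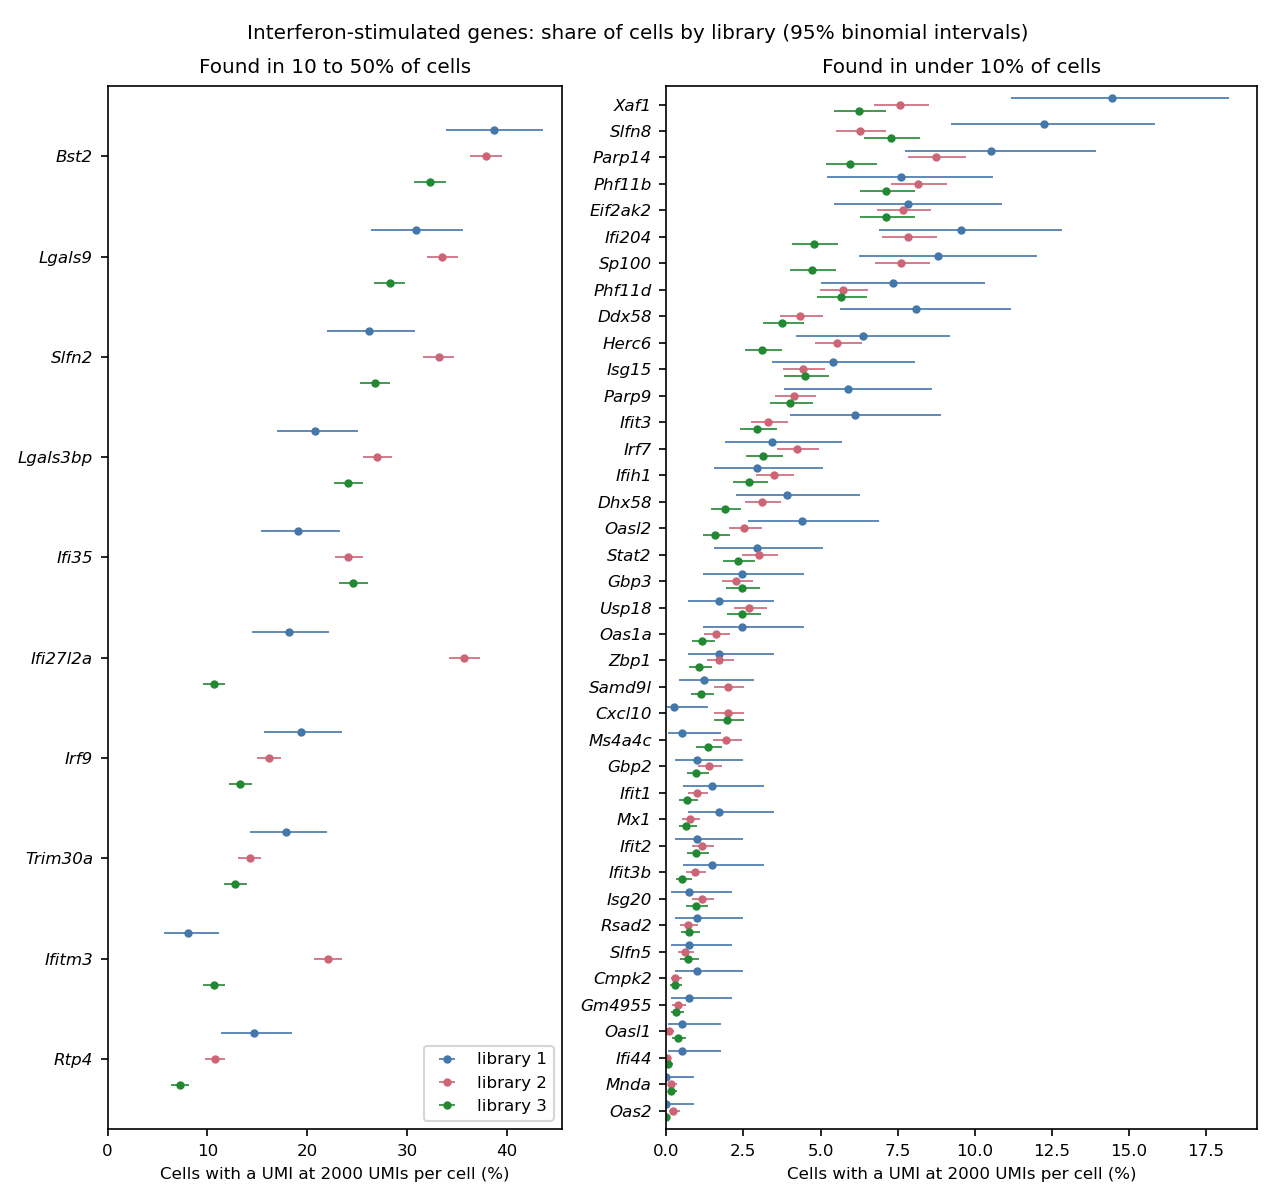
Share of cells with at least 1 UMI (x axis, percent, cells thinned to 2000 UMIs) for each of the 49 members (y axis), with points for libraries 1, 2 and 3 and bars for 95% binomial intervals. Ifi27l2a and Ifitm3 stand apart in library 2, at 35.8% and 22.1%, and of the few-cell members only Xaf1, Slfn8 and Parp14 pass 10% in a library, each in library 1.

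Among the broad members, 2 antiviral genes were at least 2-fold higher in library 2 than in library 3. Ifi27l2a, a small membrane protein of a family strongly induced by type I interferon, measured 144 CPM (counts per 1000000 UMIs) in library 1, 252 CPM in library 2 and 60.1 CPM in library 3. It was found in 18.1%, 35.8% and 10.6% of thinned cells, and the 3 intervals do not overlap. Its CPM was 4.19-fold lower in library 3 than in library 2 (interval 3.93 to 4.46), the largest ratio of that pair among members at a mean of 10 CPM or more, and 2.40-fold lower than in library 1 (2.05 to 2.80).

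Ifitm3, which blocks the entry of enveloped viruses, measured 56.6, 138 and 64.5 CPM in libraries 1, 2 and 3 and was found in 8.09%, 22.1% and 10.6% of thinned cells. Library 2 was 2.44-fold above library 1 (1.94 to 3.104) and 2.14-fold above library 3 (2.01 to 2.29), whereas the interval of library 3 over library 1 held 1 (0.904 to 1.46). Library 2 is also the one with many proliferating cells, and a UMI of Mki67 or Top2a was found in 1231 of its 3569 thinned cells. Ifi27l2a was found in 37.2% of those cells (34.5 to 40.0%) and in 35.0% of the others (33.0 to 37.0%). Ifitm3 was found in 21.4% and 22.5%. Before thinning, Top2a alone had a UMI in 1914 of the 3557 library 2 cells with fewer than 8 few-cell members. The cells without a thinned UMI of either proliferation gene therefore included cells with Top2a. Whether the level of Ifi27l2a or Ifitm3 in library 2 depends on proliferation was not tested.

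Bst2, which tethers budding virions to the cell surface, had the most UMIs of all members, with 262, 248 and 200 CPM in libraries 1, 2 and 3. It was found in 38.7%, 37.9% and 32.3% of thinned cells, and libraries 1 and 2 were not separated by the interval of their ratio (0.848 to 1.06). Slfn2, a Schlafen protein known to keep immune cells quiescent, measured 159, 212 and 167 CPM. Lgals9 and Lgals3bp, a secreted galectin and a secreted galectin-binding glycoprotein, measured 186, 210 and 161 CPM and 138, 167 and 148 CPM. Ifi35, a leucine zipper protein, measured 113, 139 and 138 CPM, and was 1.22-fold above library 1 in library 3 (1.03 to 1.44).

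The remaining broad members were highest in library 1. Irf9, the DNA-binding part of the ISRE complex, measured 116, 88.0 and 74.7 CPM in libraries 1, 2 and 3. Trim30a, a ubiquitin ligase that restrains Toll-like receptor signals, measured 99.8, 74.3 and 69.7 CPM. Rtp4, a receptor-transporting protein with antiviral activity, measured 111, 67.3 and 36.7 CPM, and library 3 was 3.02-fold below library 1 (2.52 to 3.61).

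Of the 39 few-cell members, 20 reached a mean of 10 CPM over the libraries and 19 did not. Among the sensors of viral RNA, Ddx58 (RIG-I) measured 41.0, 20.2 and 17.2 CPM in libraries 1, 2 and 3. Dhx58 measured 24.6, 13.6 and 9.56 CPM and Ifih1 (MDA5) 17.1, 16.5 and 13.96 CPM. Library 1 was 2.03-fold above library 2 for Ddx58 (1.51 to 2.69), and the corresponding interval of Ifih1 held 1.

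The IFIT genes, whose products bind viral RNA, lie next to each other on chromosome 19 (34550694 to 34650009 in GRCm38). Ifit3 measured 40.2, 19.6 and 16.6 CPM in libraries 1, 2 and 3 and was found in 6.13%, 3.31% and 2.95% of thinned cells. Ifit3b measured 16.4, 5.81 and 2.78 CPM, Ifit1 10.4, 6.35 and 3.84 CPM and Ifit2 4.47, 7.59 and 5.16 CPM. All of these except Ifit2 were highest in library 1. The counts of Ifit3 are uncertain against Ifit3b, as 6.34% of the 91-base stretches at the transcript ends of Ifit3 also occur in Ifit3b. Of the stretches at the transcript ends of Ifit3b, 0 occur in another gene.

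The ISG15 system attaches a ubiquitin-like protein to targets and removes it. Isg15 itself measured 38.0, 26.7 and 22.6 CPM in libraries 1, 2 and 3 and was found in 5.39%, 4.43% and 4.51% of thinned cells. Herc6, the ligase of this system in mice, measured 37.2, 25.9 and 14.97 CPM. Usp18, which removes the modifier and limits receptor signalling, was level by comparison at 11.2, 13.9 and 12.4 CPM. Among the synthetase family, Oasl2 measured 35.0, 14.7 and 9.16 CPM, and library 1 was 3.82-fold above library 3 (2.71 to 5.29), the largest ratio of that pair among members at a mean of 10 CPM or more. Its log2 ratio of library 2 over library 1 was -1.25, and 0.09 once cells with at least 3 few-cell members at 2000 UMIs were left out. Oasl2 itself helped to choose those cells, so part of this move follows from the choice. Oas1a, Oasl1 and Oas2, at 0 to 11.2 CPM, complete the family, and Oas2 had 0 UMIs in library 1, where 3 UMIs would be 2.23 CPM. Up to 42.2% of the transcript-end stretches of Oas1a occur in Oas1g, so its counts are uncertain.

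Xaf1, which promotes cell death, measured 90.1, 41.2 and 35.1 CPM in libraries 1, 2 and 3 and was the most widely found few-cell member in library 1, in 14.5% of thinned cells against 7.59% and 6.24%. Slfn8 measured 70.7, 32.6 and 32.8 CPM, and libraries 2 and 3 did not differ beyond counting error. The neighbours Parp14, a regulator of macrophage signalling, and Parp9, a partner of the ubiquitin ligase Dtx3l, measured 66.3, 45.3 and 29.7 CPM and 32.8, 20.3 and 20.03 CPM. Ifi204, a sensor of DNA, measured 54.3, 42.4 and 27.4 CPM, and the nuclear body protein Sp100 43.2, 38.4 and 24.6 CPM.

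The members given next differed by less than 2-fold in each pair of libraries. Eif2ak2 (PKR), the kinase that stops translation on double-stranded RNA, measured 42.4, 45.6 and 38.8 CPM in libraries 1, 2 and 3. Phf11b measured 41.7, 44.2 and 39.3 CPM and its neighbour Phf11d 39.5, 32.0 and 28.4 CPM, and these share transcript-end stretches with each other and with other Phf11 genes. Irf7, which amplifies type I interferon production, measured 21.6, 22.8 and 16.5 CPM. Stat2 measured 22.3, 16.2 and 12.4 CPM, and library 1 was 1.80-fold above library 3 (1.19 to 2.63). Gbp3 measured 10.4, 11.7 and 12.6 CPM, the only one of the 30 members past 10 CPM that was highest in library 3. The intervals of library 3 over libraries 1 and 2 held 1 (0.710 to 2.25 and 0.908 to 1.29).

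The chemokine Cxcl10, which draws T cells through Cxcr3, had 4, 309 and 203 UMIs in libraries 1, 2 and 3, or 2.98, 12.8 and 10.3 CPM. All 4 UMIs of library 1 were in 1 cell, and 1 cell of library 2 held 40. The other 18 members under 10 CPM were at most 16.4 CPM in any library, which was Ifit3b in library 1. They include Rsad2 (viperin), Mx1, Isg20, Zbp1, Samd9l, Cmpk2, Gbp2, Slfn5, Ms4a4c, Gm4955, Ifi44 and Mnda, the last with 0 UMIs in library 1. Of the 19 members under 10 CPM, 9 were highest in library 1, 8 in library 2 and 2 in library 3, mostly on few UMIs. Mnda shares 59.0% of its transcript-end stretches with Ifi205 or Mndal, and its counts are uncertain.

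Across the 30 members at a mean of 10 CPM or more, 19 were highest in library 1, 10 in library 2 and 1 in library 3. These ranks rest on CPM alone, and the interval of library 2 over library 1 held 1 in 12 of the 30. The ratio was above 1 in 11 members for library 2 over library 1, where 43.1% of all genes were. It was above 1 in 6 for library 3 over library 1 (42.6% of all genes) and in 2 for library 3 over library 2 (46.3%). For library 2 against library 1, 1 member was at least 2-fold higher, Ifitm3, where 4.93% of all 8130 genes at this level were. At least 2-fold lower were 5 members, Ddx58, Ifit3, Oasl2, Slfn8 and Xaf1, where 4.45% of all genes were. With CPM rescaled by the median ratio over genes 3 members were, where 2.87% of all genes were. For library 3 against library 1, 0 members were at least 2-fold higher, where 3.97% of all genes were, and 10 were at least 2-fold lower, where 5.81% of all genes were. These 10 were Ddx58, Dhx58, Herc6, Ifi27l2a, Ifit3, Oasl2, Parp14, Rtp4, Slfn8 and Xaf1. For library 3 against library 2, 0 members were at least 2-fold higher, where 1.34% of all genes were, and 2 were at least 2-fold lower, Ifi27l2a and Ifitm3, where 2.13% of all genes were.

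The median log2 ratio of the 30 members was -0.33 for library 2 over library 1, -0.67 for library 3 over library 1 and -0.24 for library 3 over library 2. The medians of all 8130 genes were -0.10, -0.10 and -0.03, so the members lay on the low side in each pair. The interval of the ratio was wholly below 1 in 13, 20 and 24 of the 30 members, where 27.3%, 28.5% and 33.9% of all genes were. It was wholly above 1 in 5, 1 and 0 members, where 20.1%, 18.5% and 28% of all genes were. Libraries 2 and 3 were each compared with the same library 1, so the first pair of comparisons is not independent.

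**Figure D2:**
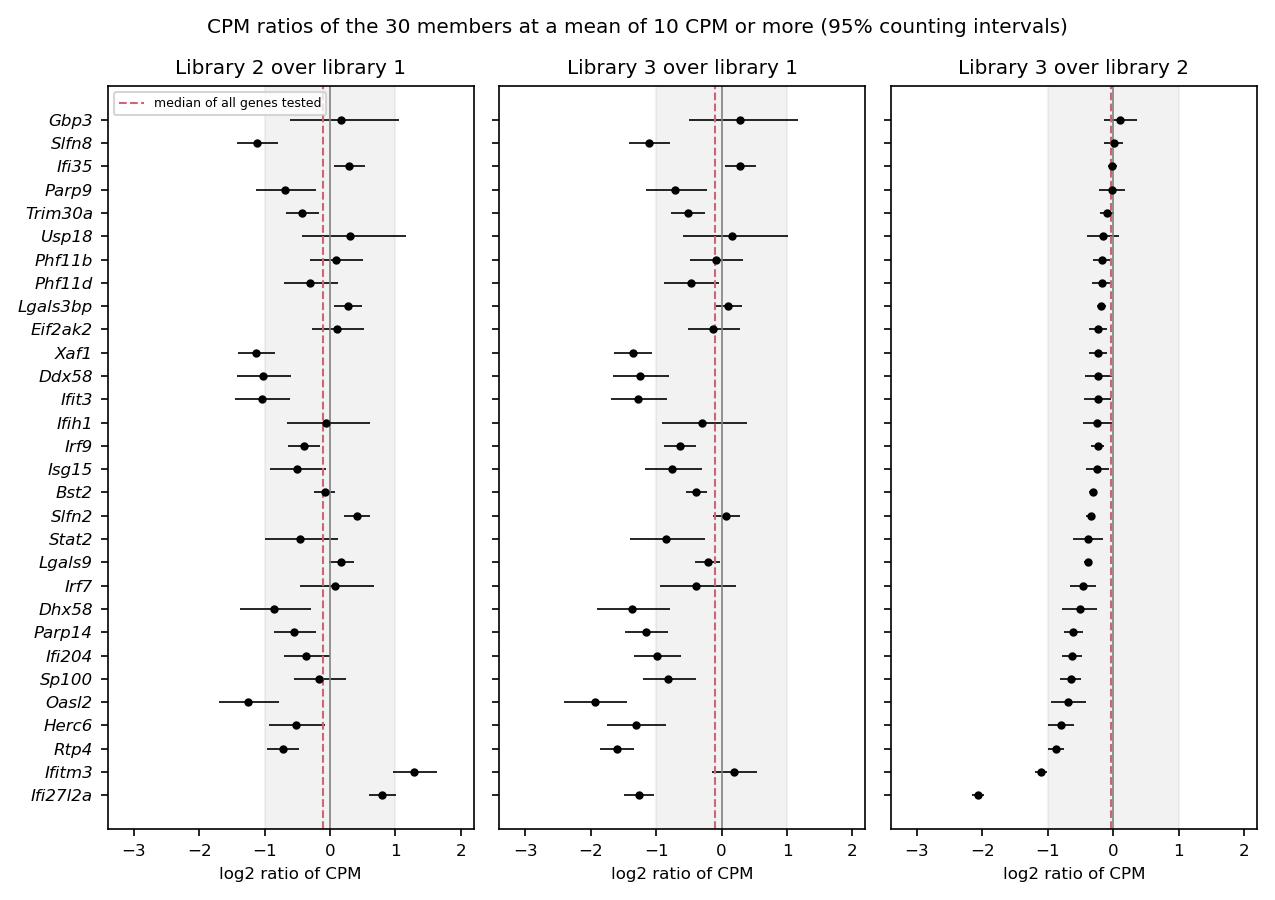
log2 ratio of CPM (x axis) of the 30 members at a mean of 10 CPM or more (y axis), 1 panel per pair of libraries, with 95% counting intervals as bars, a dashed line at the median of all 8130 genes and a grey band of ratios under 2-fold. Ifi27l2a is lowest in library 3 over library 2, at -2.07, and Oasl2 lowest in both comparisons with library 1, at -1.25 and -1.93, of which the first was 0.09 without cells of at least 3 few-cell members. Oasl2 itself helped to choose those cells.

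The spread over cells was read next. The variance of thinned counts over their mean, which is 1 for counts that vary by sampling alone, had a median of 1.16, 1.04 and 1.02 in the 30 members, 10 of them broad, and of 1.02, 1.005 and 1.007 in all genes. In libraries 1, 2 and 3 it passed 1.2 in 13, 4 and 3 members, and in 7.74%, 0.947% and 1.37% of all genes. Ifit3 and Isg15 passed it in every library, with the broad members Ifi27l2a and Rtp4 in library 2 and the few-cell member Oasl2 in library 3. Most few-cell members past 10 CPM thus lay under 1.2 in libraries 2 and 3. There each was found in under 10% of thinned cells, where the value stays near 1 unless single cells hold several UMIs. A value under 1.2 therefore does not show an even level over cells.

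A cell carried a median of 1 of the 39 few-cell members at 2000 UMIs, and the mean of their summed UMIs was 1.81, 1.27 and 1.02 per cell in libraries 1, 2 and 3. At least 3 few-cell members were found in 16.9% of cells of library 1 (13.4 to 20.9%), 12.5% of library 2 (11.4 to 13.6%) and 7.49% of library 3 (6.61 to 8.44%). A small tail carried many more, up to 24, 18 and 16 members in 1 cell. A limit of 8 members, chosen after this distribution was seen, took 6, 12 and 16 cells, or 1.47% (0.541 to 3.17%), 0.336% (0.174 to 0.587%) and 0.487% (0.279 to 0.790%) of thinned cells. These 34 cells held 20.1%, 4.27% and 6.64% of all UMIs of the few-cell members. The same members were used to choose the cells, so a raised share follows from the choice.

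**Figure D3:**
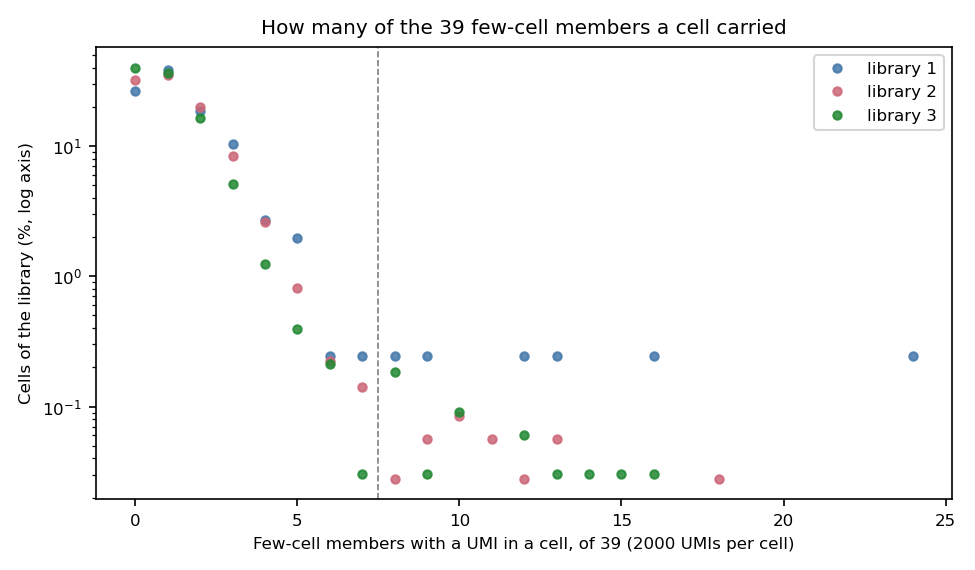
Percent of the thinned cells of libraries 1, 2 and 3 (y axis, log scale) by how many of the 39 few-cell members had a UMI in the cell (x axis), with the limit of 8 members as a dashed line. Most cells carry 0 to 2, and a thin tail in each library reaches 24, 18 and 16.

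The 34 cells were microglia by their markers. All 8 microglia markers were found in those of each library, at 10873, 11271 and 13344 CPM summed, against 15270, 12754 and 13777 CPM in the other cells of libraries 1, 2 and 3. The sum was lower in these cells in library 1 (9358 to 12562 against 15034 to 15508) and library 2 (10559 to 12017 against 12709 to 12799). Of the 7 monocyte markers only Plac8 was found in them, with 0, 1 and 3 UMIs, and perivascular macrophage and T or NK cell markers had 0 UMIs. In library 1, with 6 such cells, 0 UMIs of a list has an upper bound of 218 CPM. Of the neutrophil markers only Csf3r, which microglia also express, was found, and of the endothelial markers only Pecam1, with 0, 1 and 4 UMIs. The dendritic cell markers had 0, 1 and 1 UMIs, and the neural markers 0, 0 and 1. Among the other thinned cells, the monocyte, perivascular macrophage and dendritic cell lists each summed to at most 7.61 CPM in any library, and the T or NK cell list to at most 13.2 CPM. The highest value of the T or NK cell list in 1 cell was 11840 CPM, in library 2. The median depth of the 34 cells was 2782, 5696 and 6346 UMIs, against 2485, 5963 and 5765 in the other cells, and none of their barcodes was shared between libraries. Without thinning, a median of 20.5, 29 and 28.5 of the 49 members was found in them, and of 4, 9 and 7 in the other cells. The cells were chosen by few-cell members, so a higher number in them follows from the choice.

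Each member was then read in cells that carried at least 8 other few-cell members, so that it took no part in the choice of those cells. Over the 3 libraries, Ifit3 was found in 22 of 29 such cells (75.9%, interval 56.5 to 89.7%) and in 3.01% of cells below that limit. Isg15 was found in 67.9% and 4.27% and Ifi204 in 74.2% and 6.27%. These cells, 0.386 to 0.468% of all depending on the member left out, held 5 of the 12 thinned UMIs of Mnda (41.7%), 10 of 26 of Cmpk2 (38.5%), 11 of 32 of Gm4955 (34.4%) and 22 of 69 of Ifit3b (31.9%). By library, the shares were 71.4%, 40% and 11.1% for Cmpk2, 85.7%, 7.14% and 36.4% for Gm4955 and 78.6%, 18.9% and 22.2% for Ifit3b. Pooled over the libraries, the cells also held 26.03% of Ifit1, 23.5% of Oasl1, 20.2% of Ifit2, 17.9% of Rsad2, 17.7% of Cxcl10 and 16.6% of Ifit3. In all, 15 members had at least 10% of their UMIs there. All were few-cell members, as genes found in many cells could hardly reach this share. The same count over genes that are no members was not made. Of the 13 of these with a promoter window 9 held the ISRE core, against 22 of all 39 members with a window and 3.99% of all genes.

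Other few-cell members had little of their UMIs in those cells. Dhx58 had 1.03% there and Eif2ak2 1.06%, values above the share of cells but on few UMIs and given without an interval. Oas2 and Ifi44, with 8 and 5 thinned UMIs, had 0, on counts too small to tell. In 37 of the 39 few-cell members, the share of cells with the gene was higher there than below the limit. This counts direction alone, pooled over the libraries, and the same count over genes that are no members was not made. Broad members differed among themselves. Bst2 was found in 76.5% of these cells (58.8 to 89.2%) and 35.2% of the others, and Ifitm3 in 61.8% (43.6 to 77.8%) and 15.9%. Ifi27l2a was found in 32.4% and 23.4%, Lgals9 in 29.4% and 31.0%, and Irf9 in 11.8% and 15.1%, intervals that hold the level of the other cells. Against cells with no other few-cell member, the intervals lay wholly above in 23 of 39 few-cell members in library 2, in 23 in library 3, and in 3 and 5 of the 10 broad members. By the same comparison they did so in 0.802% and 0.815% of the 8100 other genes at 10 CPM or more. The members were not held to that level, and 19 of the 39 few-cell members lay under it, so these shares rest on unlike limits. With at least 3 other few-cell members, the limit that the rule named, fewer lay wholly above. These were 11 and 12 of the 39 few-cell members in libraries 2 and 3, and 2 and 4 of the 10 broad members. The broad ones were Ifitm3 and Trim30a in both libraries, with Ifi27l2a and Rtp4 in library 3. The share over other genes was not computed at that limit.

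**Figure D4:**
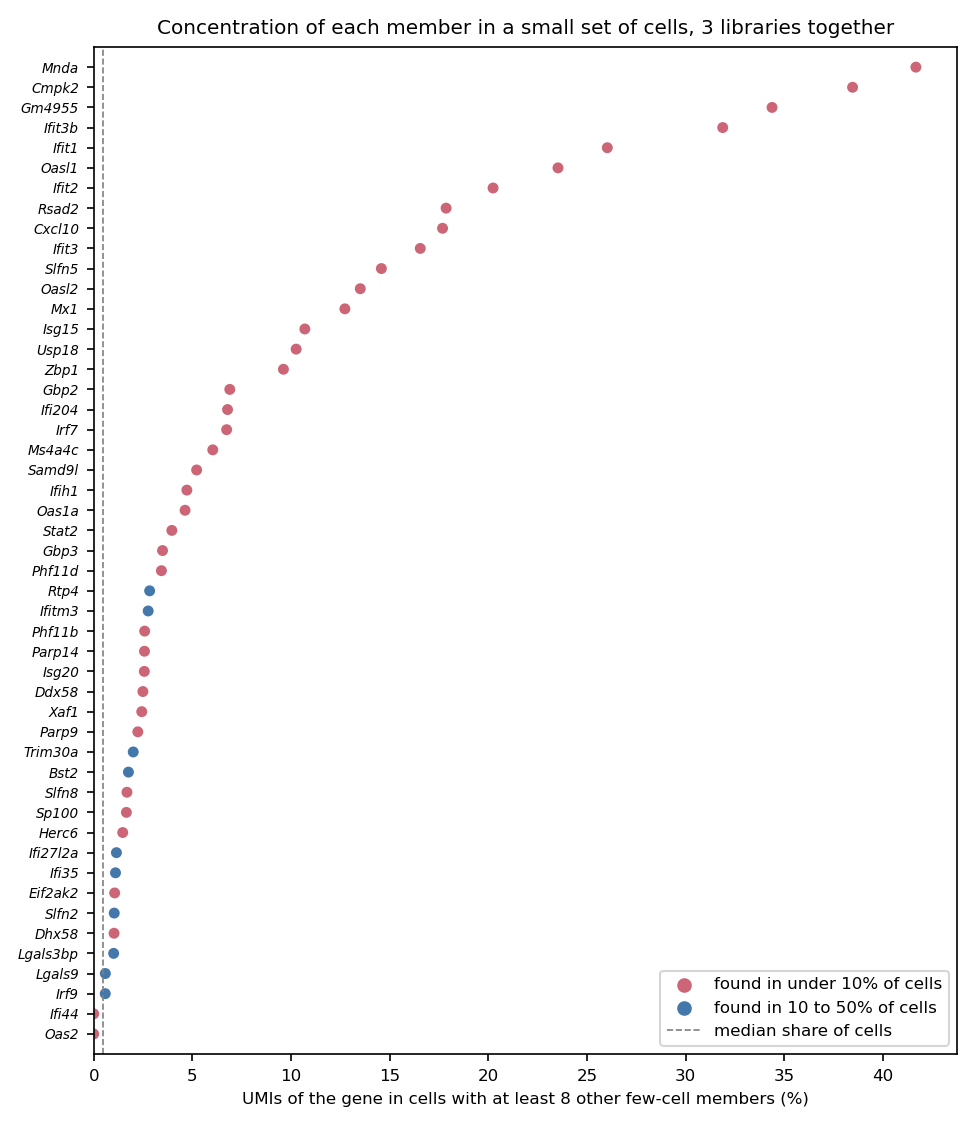
Percent of the UMIs of each member (x axis, thinned cells of the 3 libraries together) that lay in cells with at least 8 other few-cell members, with red points for few-cell and blue points for broad members and a dashed line at the median share of cells. Mnda, Cmpk2, Gm4955 and Ifit3b lie above 30%, on 12, 26, 32 and 69 UMIs in all, whereas Lgals9 and Irf9 lie near the line, at 0.590% and 0.585%.

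Pairs of members were also read (pairs chosen after the data were seen). In cells with Ifit3, Ifit3b was found in 20%, 7.63% and 7.22% of cells of libraries 1, 2 and 3, against 0.261%, 0.696% and 0.314% of cells without it, a pair that shares sequence. Isg15, on another chromosome, was found in 20%, 11.0% and 13.4% of cells with Ifit3 and in 4.44%, 4.20% and 4.24% of cells without it. Ifi27l2a was found in 28%, 35.6% and 16.5% of cells with Ifit3 and in 17.5%, 35.8% and 10.4% of cells without it, with intervals that overlap in each library. Ifitm3 was found in 28%, 28.0% and 16.5% of cells with Ifit3 and in 6.79%, 21.9% and 10.4% of cells without it. Its intervals lay apart in library 1 alone. Bst2 was found in 52%, 44.1% and 38.1% against 37.9%, 37.7% and 32.1%, with intervals that overlap in each library.

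Leaving out the few cells rich in members moved some library ratios and left others. Without the 34 cells, Ifit3 measured 24.9, 17.2 and 12.5 CPM in libraries 1, 2 and 3 in place of 40.2, 19.6 and 16.6. The members at least 2-fold lower in library 2 than in library 1 went from 5 to 2 of 30, where 4.44% of all genes were. Those lower in library 3 than in library 1 went from 10 to 9, where 5.79% of all genes were. Those lower in library 3 than in library 2 stayed at 2, where 2.09% of all genes were. The 6 such cells of library 1 held 38.9% of its Ifit3 UMIs, 68.2% of its Ifit3b UMIs and 77.8% of its Cmpk2 UMIs. Xaf1 remained 2.097-fold higher in library 1 than in library 2 without them (1.71 to 2.55). Ifi27l2a remained 4.24-fold lower in library 3 than in library 2 (3.98 to 4.52). Apart from Ifi27l2a, the members named here helped to choose the 34 cells. Part of their share in those cells, and of the fall without them, follows from that choice.

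The upstream genes of the pathway were read next, from lists that hold no member. Of 21 interferon ligands, 3 had any UMI: Ifnz with 7, Ifng with 3 and Ifnb1 with 2 over all cells, none of them in the 34 cells. The receptors were abundant, with Ifngr1 at 1122, 787 and 906 CPM in libraries 1, 2 and 3, Ifngr2 at 366, 263 and 295 CPM, Il10rb at 334, 210 and 223 CPM, Ifnar2 at 261, 173 and 176 CPM, and Ifnar1 at 98.3, 90.8 and 64.9 CPM. Of these 5 receptors 0 passed 2-fold in any pair, and Ifnlr1 had 1 UMI. Of the nucleic acid sensors outside the members, 7 were at 10 CPM or more and 0 passed 2-fold, led by Tmem173 (STING) at 295, 271 and 295 CPM and followed by Irf3, Tlr7, Tlr3 and Mb21d1 (cGAS). In each pair and direction 1.34 to 5.81% of all genes passed 2-fold, so 0 of 5 or of 7 genes says little.

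Signalling genes differed among themselves. Socs3, which restrains cytokine receptors, measured 42.4, 96.0 and 544 CPM in libraries 1, 2 and 3, the opposite order to most members. Ptpn6, Jak1 and Pias1 measured 325, 319 and 370 CPM, 142, 103 and 118 CPM, and 74.5, 52.5 and 54.6 CPM. Of 25 other interferon-stimulated genes at 10 CPM or more, 3 were higher and 1 lower past 2-fold in library 2 than in library 1, and 1 higher and 2 lower in library 3. Of all genes at this level, 4.93% were higher and 4.45% lower in library 2, and 3.97% and 5.81% in library 3. Ccl12, a chemokine for monocytes, was the highest of them at 302, 1029 and 3304 CPM, followed by Psmb8, Ifi30, Apobec3 and Tor3a. Of 4 type II interferon targets, Irgm1 (55.1, 17.6 and 15.3 CPM) and Irgm2 (29.0, 13.6 and 14.1 CPM) were lower in libraries 2 and 3 than in library 1, and Igtp and Irf1 were not past 2-fold.

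These genes were not used to choose the 34 cells, and many were higher there. In libraries 2 and 3, 14 of the 25 other interferon-stimulated genes were at least 2-fold above the other cells with an interval wholly above 1, and 8 of 25 in library 1, where 1.9%, 1.93% and 1.42% of all non-members were. In both library 2 and library 3, 10 of them passed: Ccl12, Epsti1, Pml, Pyhin1, Rnf213, Samhd1, Sp110, Tap1, Tor3a and Trim30d. Socs1, which restrains the interferon receptors, passed in every library, and Tlr3, a sensor of double-stranded RNA, in libraries 2 and 3 (4.13-fold and 5.71-fold). Of the 4 type II interferon targets, 2 passed in each library. These were Irf1 and Irgm1 in library 1, Irgm1 and Irgm2 in library 2, and Igtp and Irgm1 in library 3. Irgm1 was 8.2-fold, 6.26-fold and 6.97-fold above the other cells in libraries 1, 2 and 3. In library 1, the calls of Socs1, Ccl5, Rnf213, Epsti1 and Irf1 rested on 2, 2, 3, 4 and 4 UMIs in these cells. Ccl12 measured 10873, 4067 and 10135 CPM in these cells and 170, 1019 and 3268 CPM in the others.

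Of the 5 receptors, 0 passed in any library, and Ifngr2 was lower in these cells in library 3 (151 and 296 CPM, ratio 0.508, interval 0.290 to 0.826), though not in libraries 1 and 2 (ratios 1.18 and 1.01). Ifngr1 was lower in them in library 1 (ratio 0.387, interval 0.155 to 0.799, on 7 UMIs), and its intervals held 1 in libraries 2 and 3. Among all genes that are no members, those with the highest ratio, in libraries 2 and 3 both, of cells with at least 3 few-cell members to cells with none, at 50 CPM or more in the former, included Samhd1, Coq5, Ccl12, Tor3a, Sp110, Cd47, Lypla2, Nop16 and Tlr3, at under 2-fold each. That list rests on 446 cells of library 2 and 246 of library 3, and its genes were picked by the same ratio. The interval of Tlr3 held 1 in library 3 (0.939 to 1.56). Cells are not replicates, and the values for cells with at least 8 few-cell members describe 34 cells from 3 libraries.

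**Figure D5:**
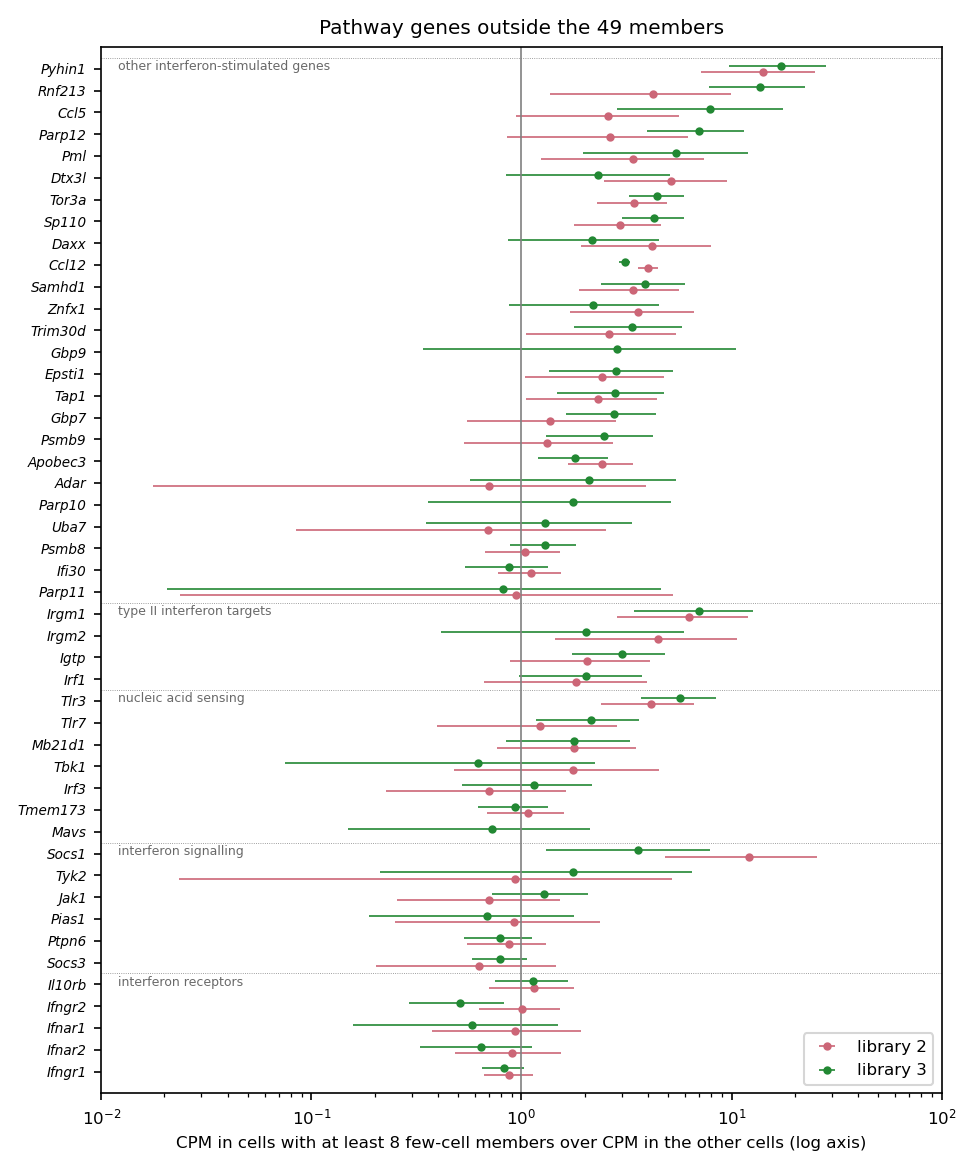
Ratio of CPM in cells with at least 8 few-cell members to CPM in the other cells (x axis, log scale) for pathway genes that are no members and were at 10 CPM or more (y axis, grouped by list; genes with no UMI in these cells are not drawn), with 95% counting intervals, for libraries 2 and 3. Pyhin1, Rnf213, Socs1 and Irgm1 lie above 3-fold in both libraries, and the 5 receptors lie near or below 1.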

How the data were processed

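The authors deposited raw UMI counts in 1 gene-by-cell matrix that joins 3 libraries made with a Chromium 3′ kit (v3.1 per the labels, v3 in the methods). The submitters' processing notes name Cell Ranger 2.1.1 and mm10. How intronic reads were treated, and whether libraries were down-sampled on joining, is not given in the sources used here. Doublet exclusion was a step of the sort, and no doublet caller was run here. All deposited cells were used for CPM (UMIs of a gene per 1000000 UMIs of the library). For shares, 2000 UMIs were drawn from every cell, without replacement and with seed 1, leaving out 201, 22 and 38 shallower cells. Genes past a mean of 10 CPM were compared by ratio, and a ratio of at least 2 was counted. A library with 0 UMIs was given the limit of 3 counts. Gene positions come from GENCODE M21 (GRCm38), found for all 49 members, and promoters those of RefSeq. Members, gene lists and classes were chosen with earlier results of these data known. Every member is accounted for; those named with values in full are the 8 with the most UMIs, the 3 highest and 3 lowest ratios in each pair of libraries, the receptors and the 5 highest genes of each list, and up to 10 non-members by their ratio in member-rich cells. Members named beyond these rules were named as roles of the pathway. The limits of 8 few-cell members and of 1.2 for variance over mean, the split by proliferation genes and the gene pairs were chosen after the data were seen, and pathway genes were also read in cells with at least 8 members, where the rule named 3. Oas1b, Mx2, Cxcl11 and Trbc2 were listed but not analysed here, and 1 signalling gene is not reported here. The steps were tested on simulated data. The scripts used pandas 2.3.3, scipy 1.17.1, numpy 2.4.6 and Python 3.11.15.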

Additional observations from a re-analysis of the deposited data

How the results depend on the processing

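No paired analysis was possible because each group is 1 library and the labels give no replicate numbers. Over all alternatives, 422 of 667 recomputed values moved by less than their counting interval or stayed within 1.5 times of a count. The share of cells with at least 3 few-cell members, in libraries 1, 2 and 3, was 4.73%, 2.90% and 1.84% at 1000 UMIs per cell, and 39.4% and 25.8% in libraries 2 and 3 at 4000. Without thinning it was 62.9% in library 2 and 44.2% in library 3, and 18.9% in library 1, the shallowest, so that the order of the libraries changed. For at least 2 members it was 35.5%, 32.3% and 23.8%, for at least 5 it was 3.92%, 1.51% and 1.13%, and for at least 8 it was 1.47%, 0.336% and 0.487%. By the mean over the libraries, members found in 10 to 50% of cells numbered 6 at 1000 UMIs, 17 without thinning and 0 for at least 2 UMIs. By that mean, 3 members passed 50% of cells without thinning, and 3 at 4000 UMIs, where only libraries 2 and 3 were used. With a mean of at least 1 CPM, library 2 was at least 2-fold higher than library 1 in 3 of 46 members and lower in 9 (7.92% and 9.38% of all genes), library 3 higher than library 1 in 1 and lower in 17 (5.87% and 12.1%), and library 3 higher than library 2 in 1 (2.65%). At 1.5-fold the counts were 2 higher and 8 lower of 30 for library 2 against library 1 (12.9% and 17.4% of all genes), 16 lower in library 3 than in library 1 (19.3%) and 8 lower in library 3 than in library 2 (5.54%). Rescaling CPM by the median ratio over genes left 3 members lower in library 2 than in library 1 (2.87% of all genes). Without cells of at least 8 few-cell members 2 were lower (4.44%), and without cells of at least 3 the counts of 28 were 2 higher and 1 lower in library 2 (5.16% and 4.77%), and 4 lower in library 3 (6.26%), than in library 1; the log2 ratio of Oasl2, library 2 over library 1, then turned to 0.09 from -1.25. Few-cell members, Oasl2 among them, helped to choose the cells left out, so part of these changes follows from that choice. Depth limits every share, and library 1 has few cells and few UMIs.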
